A study of Rattus norvegicus with 7 samples.

Results

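Integrins are the receptors through which mesenchymal cells hold on to the matrix around them and to a coated surface. Each is a pair of membrane proteins, an alpha subunit that largely sets which ligand is bound and a beta subunit whose short tail is gripped by talin and kindlin inside the cell. The study concerned how mesenchymal stem cells attach to a new polymer, a process in which integrins take part, and the genes of these receptors were followed in its RNA sequencing data. They were chosen by symbol as 10 integrin subunits of mesenchymal cells: the collagen receptor subunits Itga1, Itga2 and Itga11, the laminin receptor subunits Itga3, Itga6 and Itga7, the fibronectin receptor subunit Itga5, and the beta subunits Itgb1, Itgb3 and Itgb5. Values were found for 8 of the 10 among the 17147 gene symbols listed, and all 8 passed the filter on low values that left 9467 genes for testing. Itga2 and Itga3 were not analysed here.

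The cells were primary mesenchymal stem cells (rMSCs) from rat bone marrow, isolated per the methods from a male Sprague-Dawley rat aged 6 weeks. They were seeded at 20000 cells on ISB-P, a polyurethane copolymer of polycaprolactone and propoxylated isosorbide, on PCL, plain polycaprolactone, or on TCP, uncoated tissue culture plastic. RNA was collected after 4 h, giving 3 ISB-P libraries, 3 PCL libraries and a single TCP library (n = 1), all in the same growth medium with serum. The study speaks of triplicates without saying whether these were separate cultures or animals, so p-values measure the spread between these libraries, which may be technical. The unit of the values is not named, and they were read as FPKM, fragments scaled to transcript length and to the fragments of the library. This unit is meant for comparing levels of different genes, but some genes may be wrongly estimated. The sums of FPKM ranged from 539393 to 660124 over the 7 libraries and were highest in ISB-P replicate 3, but such sums do not measure depth. Read numbers are unknown, and precision rests on the replicates.

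Libraries of ISB-P and PCL that carry the same replicate number deviated together from their film means, at r = 0.887, 0.431 and 0.867 across genes for replicates 1, 2 and 3. The numbers were therefore taken to pair the libraries, which the sample titles do not state. ISB-P was compared with PCL without and with a block for that number. A limma p-value given with no mention of the block is from the fit without it. All 7 listed markers of mesenchymal stem cells had values above 0 in every library, at very unequal levels. Thy1 and Cd44 stood between 925 and 1210 FPKM and between 275 and 482 FPKM, Pdgfrb between 86.6 and 177 FPKM, and Eng, Nt5e and Vcam1 between 8.13 and 32.8 FPKM, while Cd200 did not pass 1.92 FPKM. Pdgfrb had a log2 fold change of -0.76 on ISB-P (limma adjusted p = 0.0510, or 1.41e-04 with the replicate block). The 6 endothelial markers summed to no more than 0.752 FPKM in any library. Among blood cell markers Lyz2 and Cd14, of myeloid cells, stood between 16.6 and 72.9 FPKM and between 10.9 and 31.7 FPKM. Both lay in the range of Eng, Nt5e and Vcam1, except Lyz2 on TCP, which lay above it. Between films the log2 fold change was -0.42 for Cd14 and 0.27 for Lyz2 (limma adjusted p = 0.175 and 0.637, or 0.00663 and 0.0299 with the replicate block). Cd34 and Cd3e were listed at 0 in all 7 libraries, which can be a failed estimate. The 8 blood cell markers summed to 127 FPKM on TCP and to between 38.5 and 45.6 FPKM on the films. Of 4 megakaryocyte and platelet markers only Pf4 was tested, and none of the others passed 0.857 FPKM. Pf4 stood between 6.94 and 9.09 FPKM on PCL, between 2.81 and 5.93 on ISB-P and at 8.15 on TCP. Its log2 fold change was -0.68 (limma adjusted p = 0.300, or 0.0348 with the replicate block).

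The promoters of 3 subunits are shown because heat shock genes and integrins were both of interest to the study. They belong to Itga5 and Itgb1, the partners of the fibronectin receptor, and to Itga1, where a heat shock motif was found. Each is the run of 250 bases before the gene's start in RefSeq on GRCr8, a later build than the rn5 of the deposited values. Capitals mark every match, on either strand, to the core of the heat shock element (GAANNTTC or TTCNNGAA), the AP-1 site (TGANTCA), the GC box (GGGCGG) or the TATA box (TATAAA).
Itga5, chr7:136381306-136381555, minus strand: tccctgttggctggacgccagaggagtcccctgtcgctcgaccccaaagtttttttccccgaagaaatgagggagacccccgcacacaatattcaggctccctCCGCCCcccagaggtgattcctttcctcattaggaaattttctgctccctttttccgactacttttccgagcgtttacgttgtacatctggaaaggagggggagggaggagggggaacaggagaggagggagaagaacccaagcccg
Itgb1, chr19:73602027-73602276, plus strand: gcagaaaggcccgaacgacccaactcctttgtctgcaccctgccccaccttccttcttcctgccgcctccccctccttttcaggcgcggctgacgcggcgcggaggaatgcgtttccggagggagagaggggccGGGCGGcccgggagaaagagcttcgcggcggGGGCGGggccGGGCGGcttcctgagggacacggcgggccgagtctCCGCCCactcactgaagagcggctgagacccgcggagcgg
Itga1, chr2:48545284-48545533, minus strand: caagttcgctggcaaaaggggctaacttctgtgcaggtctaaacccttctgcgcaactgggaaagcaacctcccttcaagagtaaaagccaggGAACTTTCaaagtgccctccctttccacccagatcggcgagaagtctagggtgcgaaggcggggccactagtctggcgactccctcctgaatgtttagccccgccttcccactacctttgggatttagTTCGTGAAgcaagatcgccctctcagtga
Itga5 held a single GC box, 147 bases before the start. Itgb1 held 4 GC boxes, of which the first lay 116 and the last 40 bases before the start. Itga1 held 2 matches to the heat shock core, 157 and 29 bases before the start. Among all 27457 promoters of this length, 13.2% held that core, 6.36% the AP-1 site, 32.4% a GC box and 13.1% the TATA box. Promoters were found for 7 of the 10 subunits, 5 of them with values here, and no match to the heat shock core, AP-1 or TATA letters lay in the windows of the other 6. A match is a run of letters and not a measured binding site.

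The rank order of the subunits was the same on both films. Itgb1, the shared partner of most of these alpha subunits, was the highest, followed by Itga5, Itgb5, Itga11, Itgb3, Itga6, Itga1 and Itga7. Within each film the libraries of neighbours in this order did not overlap. On TCP the order differed in its last 2 places, where Itga7 lay above Itga1. Among all listed genes Itgb1 stood between the percentiles 99.0 and 99.5 over the 7 libraries and Itga5 between 97.0 and 98.8, whereas Itga1 and Itga7 never passed percentile 60.3. Of the 5 alpha subunits with values, Itga5 and Itga11 were thus far above Itga6, Itga1 and Itga7.

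**Figure D1:**
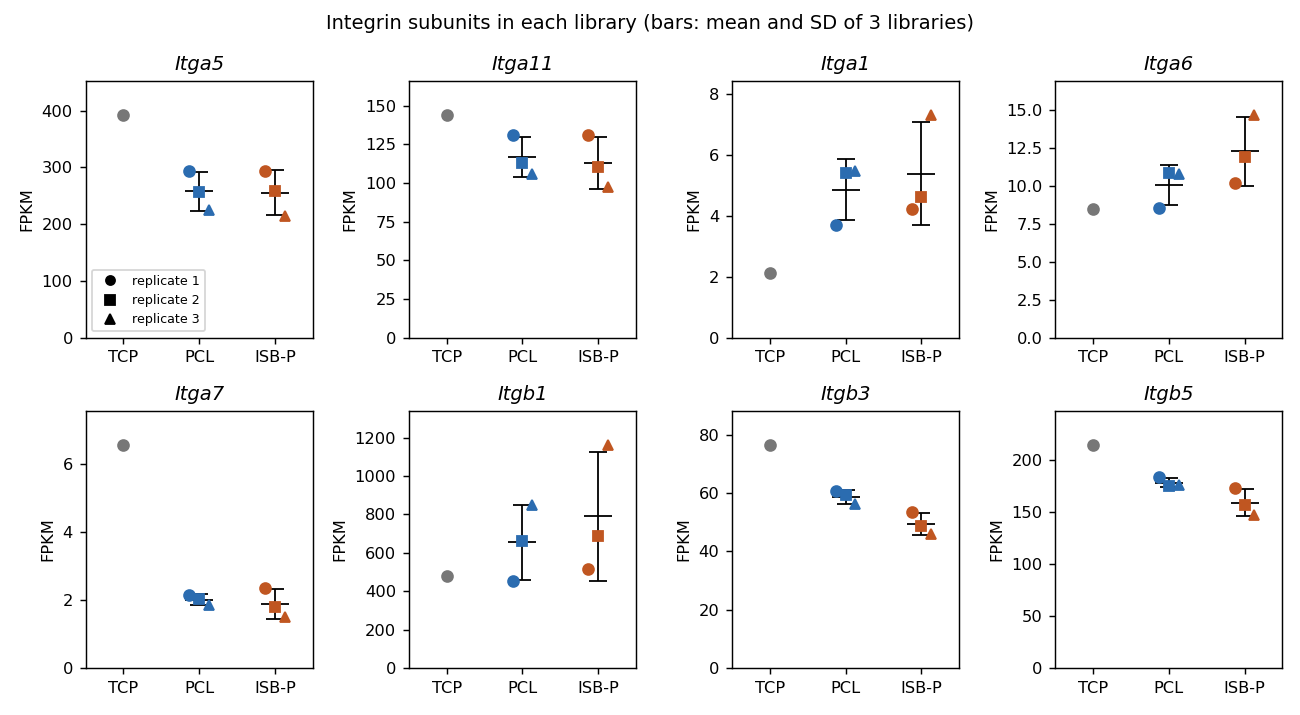
FPKM of the 8 integrin subunits in each library, 1 panel per gene with its own linear axis from 0; points are libraries, marker shapes give the replicate number, and bars give the mean and SD of the 3 libraries of a film. Itgb3 and Itgb5 are the genes whose ISB-P and PCL libraries do not overlap, and Itgb1 has the widest spread between replicates, 455 to 848 on PCL against 518 to 1164 on ISB-P.

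The first question was whether receptor transcripts differed between ISB-P and PCL. None of the 8 subunits was called without the block (limma on log2(FPKM + 1), adjusted p under 0.05 over all tested genes), against 1.72% of all those tested (1.1% up and 0.623% down on ISB-P). None had an unadjusted p under 0.05 in that fit, which 12.1% of tested genes had. With the block, 1 of the 8, Itgb3, was called, where 24.4% of tested genes were (13% higher and 11.4% lower). None of the 8 passed the study's thresholds (fold change over 2, unadjusted p under 0.1 and at least 16 FPKM on either film), which 0.687% of tested genes passed. All 8 lay within 2-fold, as did 98.8% of tested genes. The median log2 fold change was -0.03 over the subunits and 0.02 over all tested genes.

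Itga5, which pairs with Itgb1 as the main fibronectin receptor, was 294, 256 and 225 FPKM in PCL replicates 1, 2 and 3. The ISB-P replicates 1, 2 and 3 stood at 294, 259 and 214 FPKM. Both films thus had nearly the same level in libraries of the same number, and the ISB-P to PCL ratio was 1.00, 1.01 and 0.953 within replicates 1, 2 and 3. The means were 258 ± 34.6 and 256 ± 40.2 FPKM (SD, n = 3 each), for a log2 fold change of -0.02 (standard error 0.17, limma adjusted p = 0.986). The 95% interval of the fold change ran from 0.751 to 1.30, or from 0.895 to 1.09 with the replicate block.

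Among collagen receptor subunits, Itga11, which binds fibrillar collagen, was 131, 113 and 106 FPKM in PCL replicates 1 to 3. The ISB-P libraries stood at 131, 111 and 97.4 FPKM. The films overlapped fully (log2 fold change -0.05, standard error 0.16, limma adjusted p = 0.959). Itga11 and Itga5 kept nearly the same proportion in all film libraries, with an Itga5 to Itga11 ratio between 2.12 and 2.34, against 2.73 on TCP. Itga1, the other collagen receptor subunit with values, was low, at 3.70, 5.40 and 5.48 FPKM on PCL and 4.22, 4.61 and 7.33 on ISB-P. Its films overlapped as well (log2 fold change 0.11, standard error 0.22, limma adjusted p = 0.937), and its sign turned to -0.04 without PCL replicate 1 and to -0.10 without ISB-P replicate 3.

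The laminin receptor subunit Itga6 was 8.51, 10.8 and 10.8 FPKM in PCL replicates 1 to 3. The ISB-P libraries stood at 10.2, 11.9 and 14.7 FPKM. Every ISB-P library was above the PCL library of its number, by ratios of 1.20, 1.10 and 1.36, although the films overlapped. The log2 fold change was 0.26 (standard error 0.17, limma adjusted p = 0.708), with an adjusted p of 0.0612 in limma with the replicate block. Scaled as well as blocked, its limma adjusted p was 0.0323 with quantile normalization, 0.0662 with upper quartile scaling and 0.191 with a common total, where the log2 fold change was 0.15. Itga7, a laminin receptor subunit best known from muscle, was low at 2.16, 2.04 and 1.84 FPKM on PCL and 2.35, 1.80 and 1.503 on ISB-P (limma adjusted p = 0.934).

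Itgb1, which pairs with each of the alpha subunits measured here, was 455, 662 and 848 FPKM in PCL replicates 1 to 3. The ISB-P libraries stood at 518, 688 and 1164 FPKM. Replicates of a film differed far more than the films did: the highest library was 1.86 times the lowest on PCL and 2.25 times on ISB-P, whereas the ISB-P mean was 1.21 times the PCL mean. The log2 fold change was 0.23 (standard error 0.34, limma adjusted p = 0.915). With the replicate block the standard error fell to 0.08 and the limma adjusted p to 0.0704, and the ratio within replicates 1, 2 and 3 was 1.14, 1.04 and 1.37. The log2 fold change was 0.12 after scaling to a common total or quantile normalization. Without PCL replicate 1 the unblocked log2 fold change was -0.01, and without ISB-P replicate 3 it was -0.09.

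The partner subunits of the vitronectin receptors, Itgb3 and Itgb5, were the 2 subunits whose films did not overlap, where 17.7% of tested genes separated the films in either direction, 9.54% as lower and 8.17% as higher on ISB-P. Itgb3 was 60.9, 59.4 and 56.1 FPKM on PCL and 53.4, 48.8 and 46.1 on ISB-P. Every ISB-P library lay under every PCL library, and the means were 58.8 ± 2.43 and 49.4 ± 3.66 FPKM (SD, n = 3 each). The log2 fold change was -0.25 (standard error 0.12, limma adjusted p = 0.520), a fold of 0.842. With the replicate block Itgb3 fell on ISB-P (standard error 0.07, limma adjusted p = 0.0313), with a 95% interval of the fold from 0.755 to 0.939. The exact permutation test, two-sided, gave p = 0.1 for Itgb3, the smallest that 3 against 3 libraries allow.

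Itgb5 was 184, 175 and 176 FPKM on PCL and 173, 157 and 147 on ISB-P. The means were 178 ± 4.78 and 159 ± 13.1 FPKM (SD, n = 3 each), without overlap, for a log2 fold change of -0.17 (standard error 0.12, limma adjusted p = 0.733). It was not called with the block (limma adjusted p = 0.0993), but was with the block after scaling to a common total (0.0163) or quantile normalization (0.0271) and not after upper quartile scaling (0.0765), all by limma. Scaling to a common total moved the median log2 fold change of all tested genes by -0.10, since the sums of FPKM were on average higher on ISB-P, and the log2 fold change of Itgb5 to -0.28. Itgb3 and Itgb5 were lower on ISB-P under all 18 alternatives tried, many of which could not turn the sign. With films that do not overlap, leaving out a replicate cannot turn it. The block, trend, filter and TCP settings left both estimates unchanged.

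**Figure D2:**
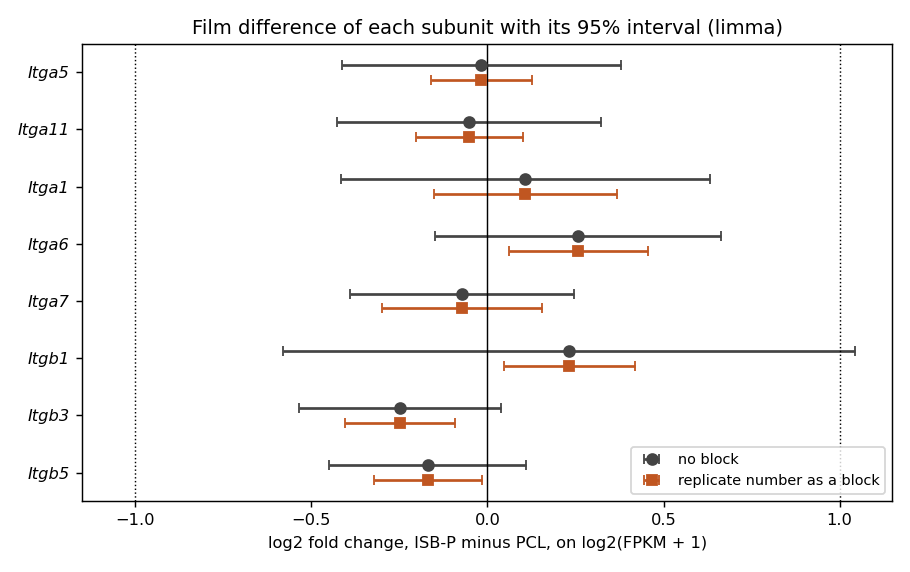
Log2 fold change of each subunit on log2(FPKM + 1), ISB-P minus PCL, with its 95% interval from limma without the block (circles) and with the replicate block (squares); dotted lines mark a 2-fold change. Each estimate lies within 0.26 of 0, and the interval of Itgb1 without the block is the widest and the only one to reach past 2-fold.

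The spread between replicates was large beside the film difference for most subunits, as it was for most tested genes. This spread includes the part that libraries of the same number share. The absolute log2 difference between films was smaller than the range of the 3 PCL libraries for 6 of the 8 subunits and for 78.5% of all tested genes. The subunits did not vary in the same direction between replicates. Itga5, Itga11, Itga7 and Itgb3 were highest in replicate 1 and lowest in replicate 3 of both films. Itgb1 and Itga1 were lowest in replicate 1 and highest in replicate 3 of both films. In replicate 1 of both films Itga6 was at its lowest and Itgb5 at its highest. The ratio of Itga5 to Itgb1 was therefore 0.646, 0.387 and 0.265 in PCL replicates 1, 2 and 3. The matching ISB-P libraries gave 0.569, 0.376 and 0.184, and TCP gave 0.818. This ratio, chosen after the values were seen, is unchanged when a library is scaled by a single factor, though quantile normalization can change it. Its film means of 0.433 ± 0.195 and 0.376 ± 0.192 (SD, n = 3 each) were not told apart when the replicate number was ignored (exact permutation test, two-sided, p = 0.7). Within every replicate number the ratio was lower on ISB-P, and this paired difference was not tested.

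A share of summed FPKM is likewise unchanged by a single factor per library. Expressed as a share of the sum of the 5 alpha subunits, Itga5 made up between 63.9% and 66.9% in the 6 film libraries. Itga11 made up between 28.5% and 30.4%, so that Itga1, Itga6 and Itga7 together held the small rest. The share of Itga5 was 65.8 ± 1.25% on PCL and 65.8 ± 1.58% on ISB-P (SD, n = 3 each), and 70.9% on TCP. Of the beta subunits, Itgb1 took 65.0%, 73.8% and 78.5% in PCL replicates 1 to 3 and 69.6%, 77.0% and 85.8% in ISB-P replicates 1 to 3. Its share was higher on ISB-P within every replicate number, by 4.58, 3.17 and 7.25 percentage points, and the shares of Itgb3 and Itgb5 were lower within every number. None of the 8 shares separated the films, and exact permutation tests gave p of at least 0.2, or 0.667 after adjustment over the 8 shares. Paired by replicate number, the exact test cannot go below p = 0.25, which it gave for the shares of Itga6, Itga11, Itgb1, Itgb3 and Itgb5.

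**Figure D3:**
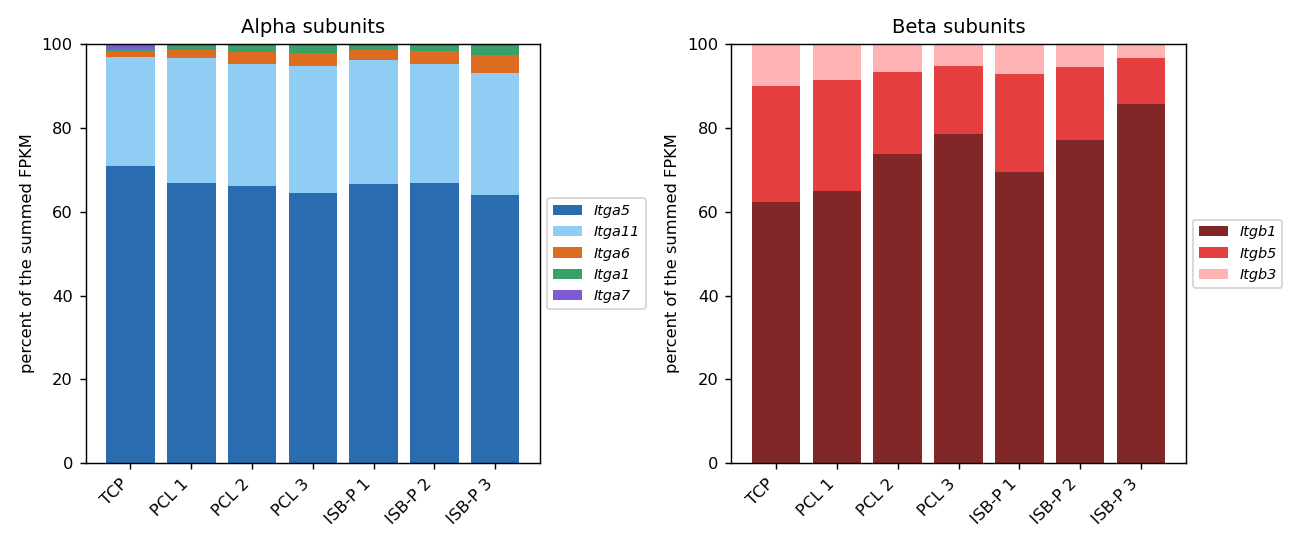
Share in percent of the summed FPKM of the 5 alpha subunits (left) and of the 3 beta subunits (right) in each of the 7 libraries; colours are genes. The Itga5 share stays between 63.9% and 66.9% on the films, while the Itgb1 share runs from 65.0% in PCL replicate 1 to 85.8% in ISB-P replicate 3.

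The single TCP library was set beside the films without a test. Itga5 was 393 FPKM on TCP, above all 6 film libraries (214 to 294 FPKM). Itga11 (144 FPKM), Itgb3 (76.6 FPKM), Itgb5 (215 FPKM) and Itga7 were also above all 6, and Itga1 and Itga6 below all 6, Itga6 by a margin of 8.49 against 8.51 FPKM in PCL replicate 1. A position above all film libraries was held by 25.4% of tested genes and a position below by 29.7%, so 5 above and 2 below of 8 subunits describe this library and are not tested. Itgb1, at 481 FPKM, lay inside the film range and nearest to PCL replicate 1.

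Itga7 differed most from the films, at 6.56 FPKM on TCP against 2.01 ± 0.160 on PCL and 1.88 ± 0.430 on ISB-P (SD, n = 3 each). On the (FPKM + 1) scale it was 2.51 times the PCL mean and 2.62 times the ISB-P mean. A 2-fold excess on TCP was seen for 3.04% of tested genes against PCL and 4.28% against ISB-P, comparisons that share the TCP library. Itga1 went the opposite way, at 2.13 FPKM on TCP against 4.86 ± 1.01 on PCL and 5.39 ± 1.69 on ISB-P. It was 1.87 times higher on PCL and 2.04 times higher on ISB-P on the same scale, and only the second passed 2-fold. TCP was lower by more than 2-fold for 5.56% of tested genes against PCL and 8.98% against ISB-P. Without ISB-P replicate 3, or after upper quartile or common total scaling, Itga1 no longer passed 2-fold against ISB-P. With a pseudocount of 0.1, or without PCL replicate 1, Itga1 passed 2-fold against PCL as well. For Itgb3, TCP was 1.30 times the PCL mean and 1.54 times the ISB-P mean.

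**Figure D4:**
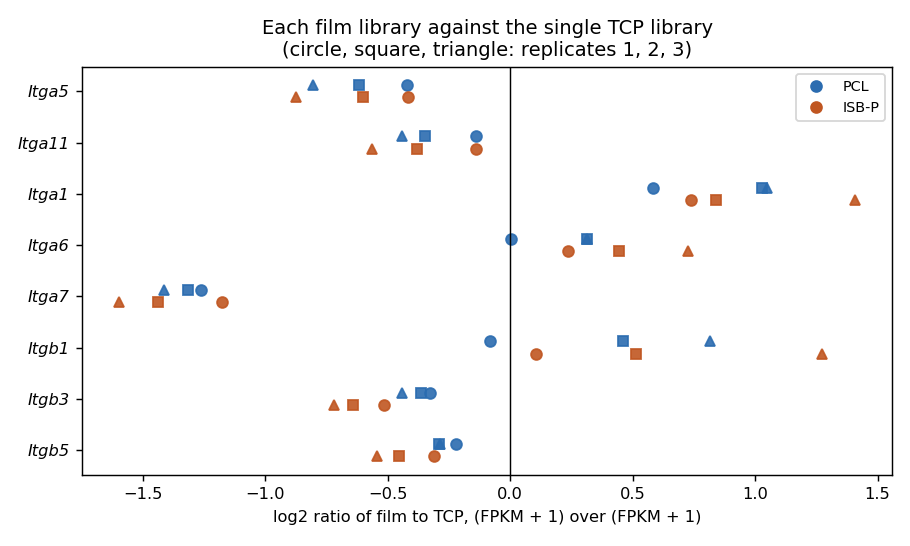
Log2 ratio of each film library to the single TCP library, on (FPKM + 1), for the 8 subunits; colours are films and marker shapes replicate numbers. All 6 film libraries lie left of 0, under TCP, for Itga5, Itga11, Itga7, Itgb3 and Itgb5, and right of it for Itga1 and Itga6.

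Of Itga4, Itga8, Itga10, Itgb4, Itgb6 and Itgb8, the 6 with values among 7 listed, none exceeded 2.56 FPKM in any library, and Itga8 and Itgb8 were tested. Itgb8, a partner subunit that takes part in activating latent TGF-beta, was 1.04, 1.12 and 1.35 FPKM on PCL and 0.403, 0.518 and 0.723 on ISB-P, without overlap. Its log2 fold change was -0.49 (standard error 0.12, limma adjusted p = 0.121, or 0.00865 with the replicate block), and it was named after its values were seen. Of 8 leukocyte and platelet integrins, 6 had values, and 3 of these lay above all film libraries on TCP and 1 below. Itgb2 and Itgam, of macrophages and other leukocytes, stood at 3.88 and 2.56 FPKM on TCP against at most 1.83 and 1.01 on the films, and Itgad at 0.780 on TCP against 1.38 to 2.07 on the films (Itgam and Itgad were named after their values were seen). The blood cell markers were higher on TCP alongside them, at a sum of 127 FPKM against at most 45.6, with 5 of the 8 above all film libraries. So were 3 of 7 mesenchymal, 3 of 6 endothelial and 0 of 4 megakaryocyte and platelet markers. Of all tested genes, 25.4% lay above all film libraries on TCP and 29.7% below. The part of blood cells in the TCP values was not tested, and in bulk RNA fewer cells of a type and less RNA per cell cannot be told apart.

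The genes around the receptors were taken from 8 lists of ligands, tail-binding proteins, linkers, traffic proteins and membrane partners. Of the 78 genes described, 68 had values and 59 were tested. Without the block 0 of these were called in limma, 5 of them having an unadjusted p under 0.05, and with it 5 rose and 5 fell, which is 16.9% of those tested against 24.4% of all tested genes. Their median log2 fold change is given by list, beside 0.02 for all tested genes.

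None of 6 tested collagen genes was called with or without the block, with a median log2 fold change of -0.08, and Col1a1 and Col3a1 were the most abundant. Col1a1, a chain of type I collagen, was 5369 ± 727 FPKM on PCL and 4935 ± 1071 on ISB-P (SD, n = 3 each), against 10406 on TCP. Col1a2, its partner chain, was listed at 0 in all 7 libraries, which can be a failed estimate. Fn1, fibronectin, the ligand of the Itga5 receptor, was 2427 ± 26.5 FPKM on PCL and 2449.9 ± 128 on ISB-P, with a log2 fold change of 0.01 (standard error 0.090, limma adjusted p = 0.978), and 3923 on TCP.

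Of 3 tested laminin genes, 0 were called with or without the block, and Lamc1 and Lamb2 were the most abundant. Lamc1, the common gamma chain, was 133 ± 4.83 FPKM on PCL and 133 ± 9.50 on ISB-P (SD, n = 3 each), against 168.7 on TCP (log2 fold change 0.0026, standard error 0.12, limma adjusted p = 0.996). Of 10 tested RGD-type ligand genes, Spp1 (osteopontin), Ccn1 (listed as Cyr61) and Ccn2 fell with the block (limma adjusted p = 0.0475, 0.0181 and 0.0265) and 0 were called without it. Ccn2, listed under its older symbol Ctgf, was 27.2, 32.0 and 32.9 FPKM on PCL, 24.3, 25.1 and 24.9 on ISB-P and 119 on TCP. The median log2 fold change was 0.0026 over the laminin genes and -0.07 over the RGD-type ligands.

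Among proteins that switch integrins on from inside, 0 of 6 tested genes were called without the block and 1 rose with it. This was Apbb1ip (RIAM), which brings talin to the membrane with Rap1, at 32.1 ± 3.91 FPKM on PCL and 43.1 ± 4.04 on ISB-P (log2 fold change 0.42, limma adjusted p = 0.301, or 0.00482 with the block). The most abundant of this list were Rap1b and Fermt2, a kindlin, with limma adjusted p-values of 0.114 and 0.275 with the block, and talin itself, Tln1, was 60.9 ± 8.34 and 55.9 ± 12.7 FPKM. A further list held 6 genes, integrin inhibitors and their partners. Of these Itgb1bp1 (ICAP1), which competes with talin and kindlin for the beta 1 tail, was 36.1, 40.3 and 44.5 FPKM on PCL. On ISB-P it was 49.5, 50.8 and 68.1 FPKM, without overlap. It rose with the block (log2 fold change 0.46, limma adjusted p = 0.00422, against 0.327 without it), and Dok1 fell with it (-0.35, limma adjusted p = 0.0227). The median log2 fold change was 0.14 over the activators and -0.0036 over the list of inhibitors and partners.

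Of 9 tested linker and kinase genes, Lims1 (PINCH), the partner of integrin-linked kinase, rose with the block (log2 fold change 0.42, limma adjusted p = 0.00599, against 0.414 without it). Of 10 trafficking genes, Rab5a, of early endosomes, rose with the block (0.48, limma adjusted p = 0.00778) and Rab4a, of fast recycling, fell with it (-0.31, limma adjusted p = 0.0317). Of 9 tested membrane partners, Slc3a2 (CD98 heavy chain), which binds beta tails and also carries amino acid transporters, was 162, 165 and 160 FPKM on PCL and 258, 249 and 223 on ISB-P. The films did not overlap, and the log2 fold change was 0.58 (standard error 0.12, limma adjusted p = 0.0723, or 6.51e-04 with the block). The median log2 fold change was -0.03, 0.12 and 0.03 over the linkers, the trafficking genes and the membrane partners, where Cd63 and Cav1 were the most abundant and not called. Apart from the genes given as most abundant, the genes of these lists were named after their values were seen.

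**Figure D5:**
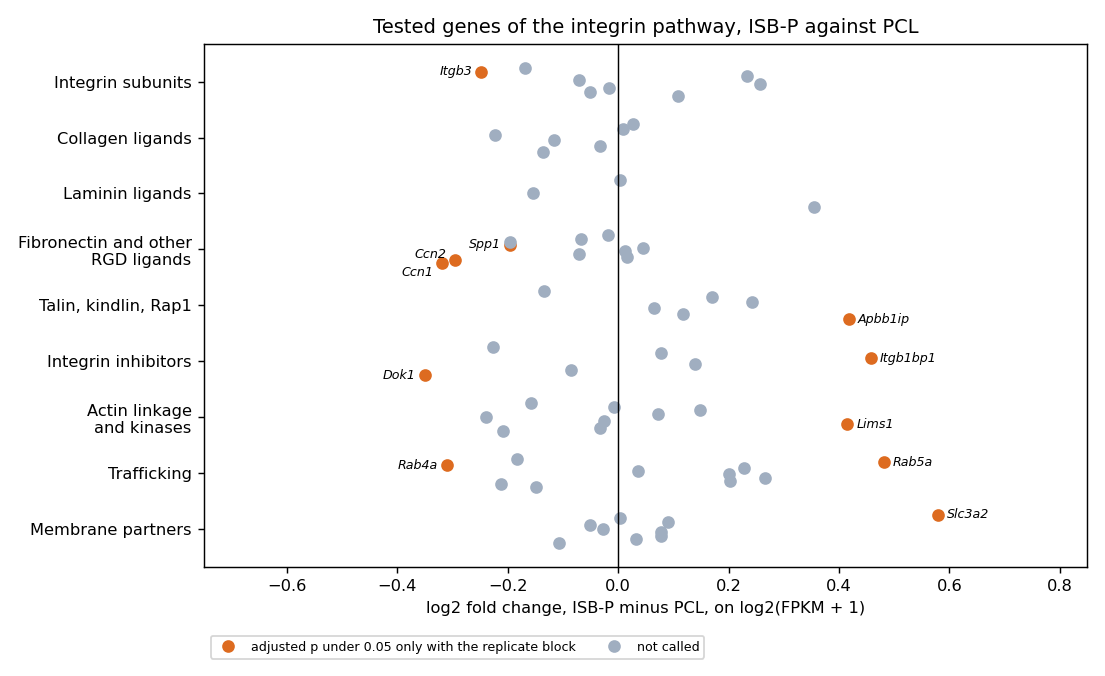
Log2 fold change on log2(FPKM + 1), ISB-P minus PCL, of the tested genes of the integrin subunits and of 8 lists around them, 1 point per gene; orange points were called by limma with the replicate block only and grey points were not called. The largest difference in either direction is that of Slc3a2, 0.58.

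The tested genes whose levels followed Itga5 most closely over the 7 libraries were Sidt2, Plekhm2, Pcyt2, Mmp23 and Csrp1. The root mean square difference from Itga5 of log2(FPKM + 1), centred on each gene's mean, was between 0.0441 and 0.0514 for these 5 among 5137 genes of like spread, which share libraries and scaling. Of the integrin subunits Itga11 was the nearest to it, at 0.108, with 155 of these genes closer, and Itgb1 was at 0.695, farther than all 5137.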

How the data were processed

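RNA was made into TruSeq stranded mRNA libraries and read as paired ends by the authors, who deposited 1 table per library. The unit is not named. The deposited values were read as FPKM because they are not whole numbers, differ in their smallest step between genes, and the submitters' processing notes list TopHat2 2.0.13 and Cuffdiff 2.2.1 with the build rn5, besides bcl2fastq 2.20.0.422 and cutadapt 1.18. The methods name ExDEGA 1.6.7. The annotation and the scaling between libraries are not given in the sources used here. In 19 of 21 pairs of libraries under 25% of the lowest values kept a common ratio, so reads could not be recovered and depth is unknown.

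Genes reaching 1 FPKM in 3 or more of the 6 film libraries entered limma 3.58.1 in R 4.3.3 (mean-variance trend, two-sided, Benjamini-Hochberg adjustment over all 9467) on log2(FPKM + 1), a scale that understates changes of low genes. TCP was left untested. On simulated data for ISB-P against PCL over 9467 genes, limma without the block recovered 49.0% of genes changed 2-fold and 92.2% of those changed 4-fold. With the block it recovered 46.9% and 89.2%, although in the measured data the block raised the calls from 163 to 2307. The simulation gave libraries of the same number a weaker link than the measured data had. It therefore cannot show what the block gains here. Only genes above the level of Itga1 and Itga7 were changed in the simulation. Shares were compared with exact permutation tests in scipy 1.17.1, and figures drawn with matplotlib 3.10.9 in Python 3.11.15. Promoter sequences are from RefSeq, GRCr8. In that annotation Itga1, Itga7, Itga11 and Itgb1 overlap other genes, and whether counting used the strand is not stated.

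All 10 subunits were described. Of each further list the 2 most abundant genes and any called without the block could be named, and for Itga5 the 5 genes of nearest pattern. A listed gene is not reported here and is left out of the counts of its list. Members and lists were chosen with earlier results of these data known. Alternatives were other scalings, a pseudocount of 0.1, other filters, no trend, the replicate block, TCP in the fit and each replicate left out. The block combined with a scaling was added after seeing the data.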

Additional observations from a re-analysis of the deposited data

How the results depend on the processing

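With the replicate block, 2307 of all tested genes were called in place of 163, and 1 subunit (Itgb3) in place of 0, with no other subunit call changed. Combined with a scaling, which was chosen after seeing the data, the replicate block called 2827 genes and 2 subunits with a common total, 2321 and 1 with upper quartile scaling, and 2300 and 3 with quantile normalization. The added calls were Itgb5 with a common total, and Itgb5 and Itga6 with quantile normalization. A minimum of 16 FPKM left 58 calls among 5000 genes. A common total alone turned the split of 104 higher and 59 lower genes into 70 and 70. Leaving out single replicates, 20 to 113 genes were called (20, 27, 35, 42 and 80 without PCL 2, ISB-P 2, PCL 1, PCL 3 and ISB-P 1). From 57 to 103 passed the thresholds modelled on the study's, the last without ISB-P replicate 1, and 0 subunits were called. Between 0 and 2 subunit shares separated the films, and between 2 and 4 of the 16 subunit ratios to TCP passed 2-fold. The log2 fold change changed sign among these fits for Itga5 (-0.12 to 0.10), Itga11 (-0.16 to 0.0498), Itga1 (-0.10 to 0.24), Itga7 (-0.19 to 0.0251) and Itgb1 (-0.0883 to 0.50), as did the difference in share of Itga5 (-0.735 to 0.863 percentage points) and Itga1 (-0.197 to 0.419). The cause was not tested. Itga6 stayed higher on ISB-P in the 17 alternatives that gave it a value, of which the block, trend, filter and TCP settings could not change its estimate. Taking each count under each setting, those above included, 72 equalled the main count or lay within 1.5 times it, many of them at 0, and 17 did not. The lack of read depths leaves no counting error for low genes such as Itga1 and Itga7.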
